A study of Mus musculus with 4 samples.

Results

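Expression of 44 antiviral effector genes that type I interferon induces was examined in mouse mammary tumor cell lines, with 38713 genes measured in all. The members were the rows of the expression table whose symbol stood on a fixed list of effectors, without the IRF and STAT factors, the nucleic acid sensors, the MHC genes and the GTPase families other than Mx, and all 44 were found. RNA from 4 lines, each giving 1 library, was sequenced. The JNK_WT lines (replicates 1 and 2) had the genotype p53-/- and came from tumors of Wap-Cre mice with floxed Trp53. The JNK_KO lines (replicates 1 and 3) had the genotype p53-/- JNK-/- and came from Wap-Cre mice in which Mapk8 and Mapk9, the genes for JNK1 and JNK2, were floxed as well. All lines were of strain C57BL/6, and all were labelled p53-/-, the controls included. The Wap promoter drives Cre in mammary epithelium, above all in pregnancy and lactation, and each library stands for 1 line that was passaged in culture. No agent was given to the cells, and no age of the mice was stated for these lines.

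Type I interferons are secreted proteins that bind the receptor IFNAR1/IFNAR2 and activate the kinases JAK1 and TYK2. A complex that holds IRF9 then binds the interferon-stimulated response element (ISRE) in the promoters of many genes. The products of these genes bind or degrade viral RNA, hold back virus particles, block translation or attach the ubiquitin-like protein ISG15 to other proteins. Most nucleated cells, mammary epithelium included, can express them, and they can also be expressed in tumor cells without a virus.

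All values are FPKM, that is, fragments per kilobase of transcript scaled to the mapped fragments of a library, so levels are per length and can be set side by side between genes. FPKM summed to between 775960 and 921596 per library. The authors sampled the reads to a set average depth, the depth of each single library was not given in the text used here, and steps in the low values put the depth of the deepest library (JNK_KO replicate 3) at 1.41 times that of the shallowest (JNK_KO replicate 1). The targeted Mapk8 was at 23.9 and 19.1 FPKM in the JNK_WT libraries and at 4.30 and 4.27 FPKM in the JNK_KO libraries. The other targeted gene, Mapk9, was at 29.7 and 24.3 FPKM in the JNK_WT libraries and still at 12.6 and 8.66 FPKM in the JNK_KO libraries. These are RNA levels, and on immunoblots the authors did not detect JNK protein in JNK_KO tumor cells. Trp53, floxed in all lines, was detected at 1.55 and 4.15 FPKM in the JNK_WT libraries and at 5.72 and 4.28 FPKM in the JNK_KO libraries, so these gene-level values did not show its deletion. Markers of the other cell types that a tumor culture could hold were examined. Of 10 leukocyte markers in the table, 8 were under 1 FPKM in every library, the pan-leukocyte marker Ptprc was at 0.0134 FPKM or less, and Tyrobp was listed at 0 throughout. All 5 endothelial markers were under 1 FPKM. The epithelial marker Epcam was at 150 FPKM or more in every library, though lower in both JNK_KO libraries than in both JNK_WT libraries. Krt14 was at 7.34 and 443 FPKM in JNK_WT cells, against 26.7 and 313 FPKM in JNK_KO cells. Krt5 was at 0.0316 and 61.9 FPKM in JNK_WT cells, against 0.110 and 0.205 FPKM in JNK_KO cells. In bulk RNA, a smaller share of cells that express a gene and less RNA per cell cannot be told apart.

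The ISRE core was searched in the promoters, since the members are known for their answer to interferon. RefSeq promoter windows (GRCm38.p6, 250 bases before to 50 after the start site, 300 bases in all) were at hand for 34 of the 44 members. The core, GAAA and a further GAAA with any 2 bases between them, read on both strands and allowed to overlap with further copies, stood in 12 of 34 members (35.3%). It stood in 3.77% of the 8946 tested genes with a window and in 3.99% of all 27025 genes with one. The core TTCNNNGAA of the gamma-activated site, another interferon response element, stood in 8 of 34 members (23.5%), beside 8.17% of the tested genes. Below are stretches around the ISRE core nearest the start site for the 6 members with the largest difference between genotypes among those that hold the core, read 5′ to 3′ on the strand of the gene, with ISRE cores in capitals.
Ifit1 (chr19:34640769-34640848, plus strand): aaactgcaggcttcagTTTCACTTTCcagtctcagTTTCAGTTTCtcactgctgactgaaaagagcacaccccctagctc
Isg15 (chr4:156200840-156200919, minus strand): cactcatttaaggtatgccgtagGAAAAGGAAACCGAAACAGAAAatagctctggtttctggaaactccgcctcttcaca
Trim30a (chr7:104446096-104446158, minus strand): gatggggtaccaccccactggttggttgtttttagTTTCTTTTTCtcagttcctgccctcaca
Bst2 (chr8:71537552-71537631, minus strand): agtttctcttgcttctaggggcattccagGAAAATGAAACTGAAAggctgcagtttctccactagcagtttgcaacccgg
Ifit3 (chr19:34583372-34583451, plus strand): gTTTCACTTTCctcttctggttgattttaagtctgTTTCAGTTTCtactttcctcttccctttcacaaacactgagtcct
Oas3 (chr5:120777690-120777769, minus strand): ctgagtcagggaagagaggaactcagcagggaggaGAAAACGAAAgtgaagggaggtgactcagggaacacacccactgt

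The Isg15 stretch held 3 overlapping cores and that of Bst2 held 2 that overlap, while the cores of Ifit1 and Ifit3 stood apart from each other. Over the 12 members, the core nearest the start site began between 124 bases before and 18 bases after it, with 8 of the 12 before it, and 8 of the 12 had more than 1 core in a window. The median log2 difference between genotypes was 2.56 for the 12 members with the core and 1.37 for the 22 without it, and the ranges overlapped (0.46 to 3.51 and -0.12 to 3.65). Ifi44, with the largest difference of all members, had no core in its window. A match of letters is a description and was not measured as binding.

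To ask how the effectors differed between JNK_WT and JNK_KO cells, the difference in log2(FPKM + 1), JNK_KO minus JNK_WT, was tested in the 12998 genes with at least 1 FPKM in at least 2 libraries. This scale understates the change of genes with low values. The difference was above 0 for 43 of the 44 members, and for 40 of them each JNK_KO library exceeded each JNK_WT library, as for 18.3% of all tested genes. The opposite separation was seen for 0 members (16.7% of all tested genes). For 23 members the lowest JNK_KO value was over 2 times the highest JNK_WT value (3.51% of all tested genes). The median log2 difference was 1.58 over the members and 0.01 over all tested genes. A log2 difference over 0.75 was reached by 38 members, all of them higher in JNK_KO cells (9.25% of all tested genes), and one over 2 by 17 members (2.22%). A difference of over 0.75 in the other direction was reached by 0 members (6.43%).

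No member passed the test over all genes (0 of 44, as for 0% of all tested genes, at a limma adjusted p-value under 0.05 with an absolute log2 difference over 0.75). The smallest limma adjusted p-value was 0.191, that of Trim30a. At an unadjusted p-value under 0.05 there were 30 members, all higher in JNK_KO cells, beside 4.75% of all tested genes in that direction, 2.89% in the other and 7.63% in either. This count was 14 without JNK_KO replicate 1, 19 without JNK_KO replicate 3, 25 without JNK_WT replicate 2 and 36 without JNK_WT replicate 1. All 44 members passed the filter on low values, but 7 of them (Ifit3, Oas2, Mx1, Mx2, Ddx60, Trim30a and Epsti1) passed through the JNK_KO libraries alone, as did 2.35% of all tested genes, and such genes had to differ.

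**Figure D1:**
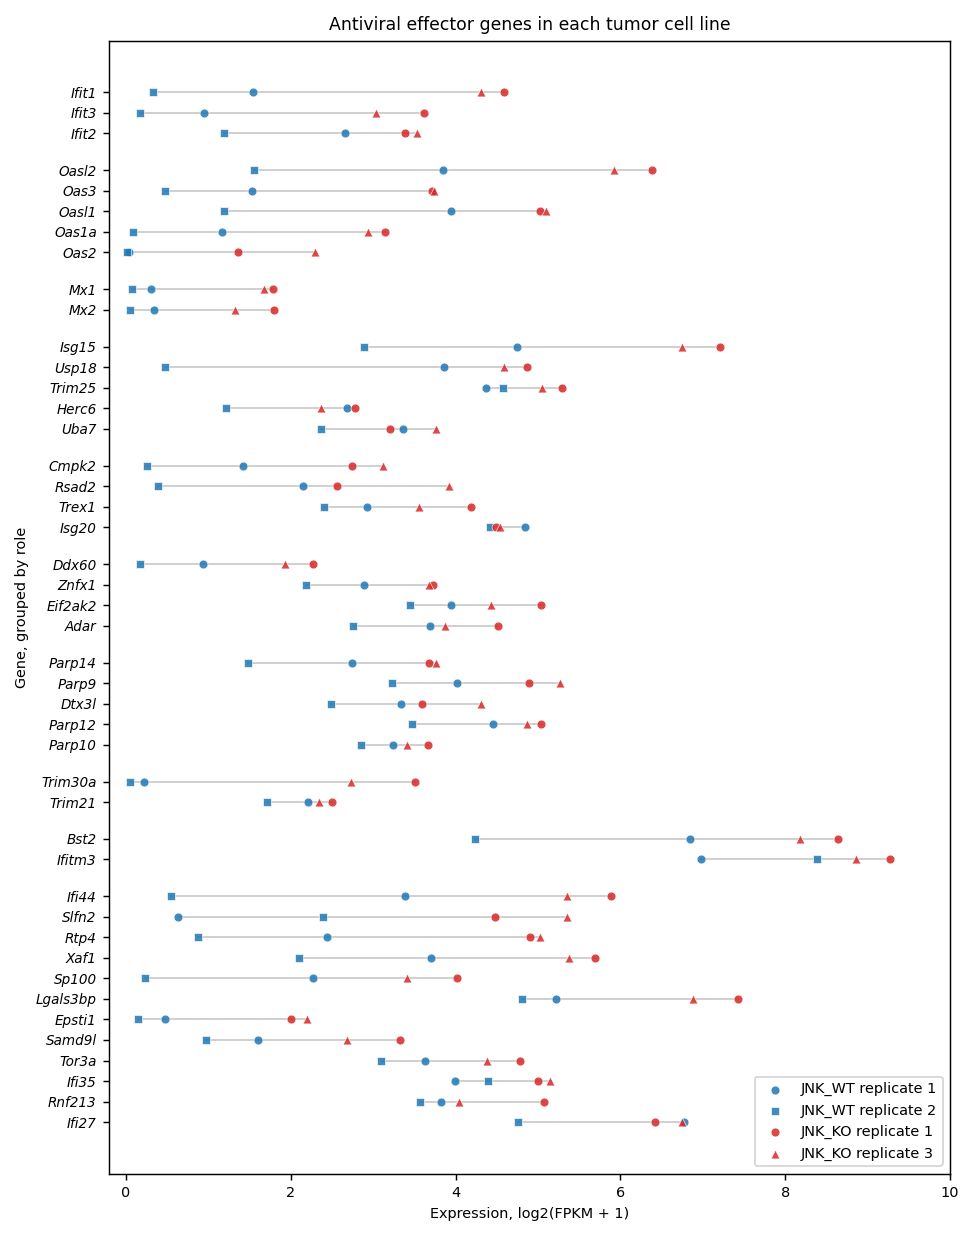
Expression of each of the 44 effector genes, as log2(FPKM + 1) on the horizontal axis, with 1 point per tumor cell line and genes grouped by role on the vertical axis. Both JNK_KO points (red) lie to the right of both JNK_WT points (blue) in 40 genes, and JNK_WT replicate 2 (blue squares) is the leftmost point in most rows.

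The IFIT proteins bind foreign or unmethylated RNA ends and hold back their translation, and the RNA of Ifit1 and Ifit3 was low in JNK_WT cells. Ifit1 measured 1.92 and 0.258 FPKM in JNK_WT replicates 1 and 2, against 23.05 and 18.8 FPKM in JNK_KO replicates 1 and 3. The groups lay far apart, with a log2 difference of 3.51 (SE 0.51, limma adjusted p-value 0.207). Ifit3, which forms complexes with IFIT1, was at 0.925 and 0.123 FPKM in JNK_WT cells, against 11.2 and 7.20 FPKM in JNK_KO cells, a log2 difference of 2.77 (SE 0.44). Ifit2 differed less, by 1.54 (SE 0.57), with 5.30 and 1.27 FPKM in JNK_WT cells, against 9.46 and 10.6 FPKM in JNK_KO cells. Its JNK_WT libraries were farther apart than its JNK_KO libraries, and the difference was 0.80 without JNK_WT replicate 2. Of the 40-base words in the Ifit3 transcript, 56.2% also stood in that of its near copy Ifit3b, so reads of 40 bases could not always be told apart between them.

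The OAS family comprises enzymes that make the second messenger 2-5A on double-stranded RNA and so activate RNase L (Oas1a, Oas2 and Oas3), and the related OASL proteins. All 5 members were higher in both JNK_KO libraries than in either JNK_WT library (18.3% of all tested genes), which the filter forced for Oas2. The largest difference was that of Oasl2, at 13.4 and 1.94 FPKM in JNK_WT cells, against 82.4 and 59.8 FPKM in JNK_KO cells (log2 difference 3.46, SE 0.82, limma adjusted p-value 0.413). Oas3 was at 1.90 and 0.392 FPKM in JNK_WT cells, against 12.1 and 12.3 FPKM in JNK_KO cells, with a difference of 2.72 (SE 0.46). Its JNK_KO libraries were nearly at the same level. Oas2 was close to 0 in JNK_WT cells, at 0.0269 and 0.0127 FPKM, and at 1.56 and 3.91 FPKM in JNK_KO cells. Oasl1, an inhibitor of Irf7 translation in mice, was at 14.4 FPKM in JNK_WT replicate 1, well above the 1.29 FPKM of replicate 2, while the JNK_KO lines had 31.4 and 33.2 FPKM. The difference of Oasl1, 2.49 (SE 0.96), was 1.11 without JNK_WT replicate 2. Oas1a differed by 2.41 (SE 0.47), and 63.2% of its 40-base words also stood in Oas1g, whose own levels were 0.315 and 0.00827 FPKM in JNK_WT cells, against 4.36 and 3.02 FPKM in JNK_KO cells. Both genes had their JNK_KO libraries above their JNK_WT libraries, but reads of 40 bases could not always be told apart between them. Oas1g also passed the filter on low values through the JNK_KO libraries alone and had to differ.

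The Mx proteins are dynamin-like GTPases that trap viral nucleocapsids, and the Mx1 gene of C57BL/6 mice carries a deletion that prevents a functional protein. Their summed level was the lowest of the 10 roles. Mx1 was at 0.233 and 0.0558 FPKM in JNK_WT cells, against 2.44 and 2.21 FPKM in JNK_KO cells, a log2 difference of 1.54 (SE 0.30, limma adjusted p-value 0.316). Mx2 had a difference of 1.37 (SE 0.34). The groups did not overlap for either gene, but both genes passed the filter through the JNK_KO libraries alone and had to differ.

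The ISG15 system attaches the ubiquitin-like ISG15 to proteins through the activating enzyme UBA7 and the ligases HERC6 and TRIM25, and USP18 removes it. The modifier and the remover differed most and the conjugating enzymes least. Isg15 was at 25.8 and 6.42 FPKM in JNK_WT cells, against 147 and 106 FPKM in JNK_KO cells, a mean 7.86 times as high (log2 difference 3.16, SE 0.67, limma adjusted p-value 0.358). Usp18, which also blocks signaling at IFNAR2, was at 13.5 and 0.386 FPKM in JNK_WT cells, against 28.3 and 23.1 FPKM in JNK_KO cells. The JNK_WT libraries of Usp18 differed 34.9 times, the widest gap of any member, and its log2 difference of 2.57 (SE 1.17) was 0.88 without JNK_WT replicate 2. Trim25 was at 19.7 and 22.9 FPKM in JNK_WT cells, against 38.3 and 32.2 FPKM in JNK_KO cells, a log2 difference of 0.70 (SE 0.25). Uba7 was at 9.30 and 4.17 FPKM in JNK_WT cells, against 8.18 and 12.5 FPKM in JNK_KO cells, and Herc6 was at 5.40 and 1.32 FPKM and at 5.84 and 4.18 FPKM. The groups overlapped for both Uba7 and Herc6, because JNK_WT replicate 1 lay above 1 of the JNK_KO libraries. Their log2 differences were 0.61 (SE 0.47) and 0.63 (SE 0.59), and without JNK_WT replicate 2 they were 0.11 for Uba7 and -0.11 for Herc6. Of the 40-base words in the Herc6 transcript, 24.4% also stood in transcripts of Gm45193.

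Among enzymes that act on nucleotides and nucleic acids, Cmpk2, a mitochondrial nucleotide kinase, was at 1.67 and 0.197 FPKM in JNK_WT cells, against 5.67 and 7.67 FPKM in JNK_KO cells (log2 difference 2.09, SE 0.50, limma adjusted p-value 0.425). Its neighbor on chromosome 12, Rsad2, encodes viperin, which makes a chain-terminating nucleotide. Rsad2 was at 3.45 and 0.308 FPKM in JNK_WT cells, against 4.92 and 14.2 FPKM in JNK_KO cells, so that the JNK_KO libraries also lay far apart, and its difference of 1.97 (SE 0.80) was 1.09 without JNK_WT replicate 2 and 1.30 without JNK_KO replicate 3. The cytosolic DNA exonuclease gene Trex1 differed by 1.20 (SE 0.38), but 96.6% of its 40-base words also stood in transcripts of Atrip, which was at 7.88 and 5.80 FPKM in JNK_WT cells, against 7.77 and 8.83 FPKM in JNK_KO cells. Isg20, an RNA exonuclease, was the only member with a difference below 0. It was at 27.7 and 20.4 FPKM in JNK_WT cells, against 21.5 and 22.2 FPKM in JNK_KO cells, a log2 difference of -0.12 (SE 0.27) that was smaller than the spread between the JNK_WT lines.

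Genes for proteins that handle double-stranded RNA differed moderately, with log2 differences from 0.97 to 1.54. The helicase gene Ddx60 was highest in this respect, at 0.916 and 0.124 FPKM in JNK_WT cells, against 3.82 and 2.80 FPKM in JNK_KO cells (limma adjusted p-value 0.458). The differences were 1.16 (SE 0.36) for Znfx1, a helicase that senses double-stranded RNA, 1.03 (SE 0.36) for Eif2ak2, the translation-blocking kinase PKR, and 0.97 (SE 0.46) for Adar, the RNA-editing enzyme ADAR1, which was 0.50 without JNK_WT replicate 2. All 4 genes had both JNK_KO libraries above both JNK_WT libraries (18.3% of all tested genes), which the filter forced for Ddx60. Eif2ak2, at 14.4 and 9.95 FPKM in JNK_WT cells, against 31.7 and 20.6 FPKM in JNK_KO cells, was well expressed in every line.

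The PARP genes encode ADP-ribosyltransferases or their relatives, and DTX3L is the ubiquitin ligase that works with PARP9. All 5 genes had both JNK_KO libraries above both JNK_WT libraries (18.3% of all tested genes). Their log2 differences ran from 0.49 for Parp10 to 1.61 for Parp14. Parp14 was at 5.72 and 1.78 FPKM in JNK_WT cells, against 11.8 and 12.6 FPKM in JNK_KO cells (SE 0.51, limma adjusted p-value 0.546). Parp9 was at 15.2 and 8.41 FPKM in JNK_WT cells, against 28.6 and 37.5 FPKM in JNK_KO cells, a difference of 1.45 (SE 0.38). Dtx3l was at 9.12 and 4.63 FPKM in JNK_WT cells, against 11.0 and 18.9 FPKM in JNK_KO cells, a difference of 1.04 (SE 0.46). Parp9 and Dtx3l lie on opposite strands with 458 shared exon bases, and the libraries were not stated to keep the strand. Without JNK_WT replicate 2 the differences were 0.97 for Parp14 and 0.61 for Dtx3l. In both Parp9 and Dtx3l, JNK_KO replicate 3 was the highest library and JNK_WT replicate 2 the lowest.

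The TRIM genes of the list stood far apart from each other. Trim30a, a rodent TRIM gene, was nearly silent in JNK_WT cells, at 0.164 and 0.0348 FPKM, and was at 10.4 and 5.62 FPKM in JNK_KO cells. Its log2 difference of 2.98 (SE 0.40) had the smallest limma adjusted p-value of all members, and leaving out 1 library gave 2.59 to 3.37. Trim30a passed the filter on low values through the JNK_KO libraries alone and so had to differ. The fits without 1 library kept the same filter. Trim21, a cytosolic antibody receptor, was at 3.63 and 2.26 FPKM in JNK_WT cells, against 4.66 and 4.07 FPKM in JNK_KO cells. Its groups did not overlap, though the gap between them was smaller than that between the JNK_WT lines.

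The membrane restriction factors were the most abundant effectors. Ifitm3, which blocks virus fusion in endosomes, had the highest mean of all members, with 125 and 333 FPKM in JNK_WT cells, against 617 and 462 FPKM in JNK_KO cells (log2 difference 1.38, SE 0.53), and the difference was 0.68 without JNK_WT replicate 1. Unlike most members, it was higher in JNK_WT replicate 2 than in replicate 1. Bst2, which encodes the virus-tethering protein tetherin, was at 114 and 17.9 FPKM in JNK_WT cells, against 399 and 288 FPKM in JNK_KO cells (log2 difference 2.87, SE 0.91, limma adjusted p-value 0.543). Without JNK_WT replicate 2 this difference was 1.57.

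Of the 12 other effectors, 11 had both JNK_KO libraries above both JNK_WT libraries (18.3% of all tested genes), which the filter forced for Epsti1. The differences of these 11 ran from 0.86 for Rnf213 to 3.65 for Ifi44. Ifi44, a cytoplasmic protein of unsettled function, was at 9.42 and 0.467 FPKM in JNK_WT cells, against 58.2 and 39.7 FPKM in JNK_KO cells (SE 0.996, limma adjusted p-value 0.472), and the difference was 2.23 to 5.06 with 1 library left out. Slfn2, a schlafen gene with a role in T cell quiescence, was at 0.545 and 4.24 FPKM in JNK_WT cells, against 21.3 and 39.7 FPKM in JNK_KO cells, a difference of 3.40 (SE 0.71). It ran against the usual order in JNK_WT cells, since replicate 1 was the lower line. Rtp4, a receptor transporter protein, was at 4.44 and 0.834 FPKM in JNK_WT cells, against 28.9 and 31.5 FPKM in JNK_KO cells, a difference of 3.30 (SE 0.59). Xaf1, which binds the apoptosis inhibitor XIAP, was at 11.99 and 3.29 FPKM in JNK_WT cells, against 50.8 and 40.5 FPKM in JNK_KO cells. Its difference was 2.63 (SE 0.60), with a wide gap between the groups.

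Lgals3bp, a secreted galectin-binding glycoprotein, was at 36.2 and 27.0 FPKM in JNK_WT cells, against 171 and 117 FPKM in JNK_KO cells, 4.55 times as high in the mean. Its log2 difference of 2.14 (SE 0.31, limma adjusted p-value 0.207) moved little with single lines, between 1.87 and 2.41. Ifi27, a small membrane protein, was abundant and did not follow genotype, with 108 and 26.0 FPKM in JNK_WT cells, against 84.3 and 107 FPKM in JNK_KO cells. Its difference of 0.82 (SE 0.71) was -0.19 without JNK_WT replicate 2. The remaining members were the nuclear body gene Sp100 (2.46), the gene Epsti1 (1.79), the poxvirus restriction factor gene Samd9l (1.72), the torsin gene Tor3a (1.22), the NMI partner gene Ifi35 (0.88) and the ubiquitin ligase gene Rnf213 (0.86), given as log2 differences, all with both JNK_KO libraries above both JNK_WT libraries. That of Rnf213 was 0.34 without JNK_KO replicate 1, and that of Sp100 was 1.44 without JNK_WT replicate 2.

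**Figure D2:**
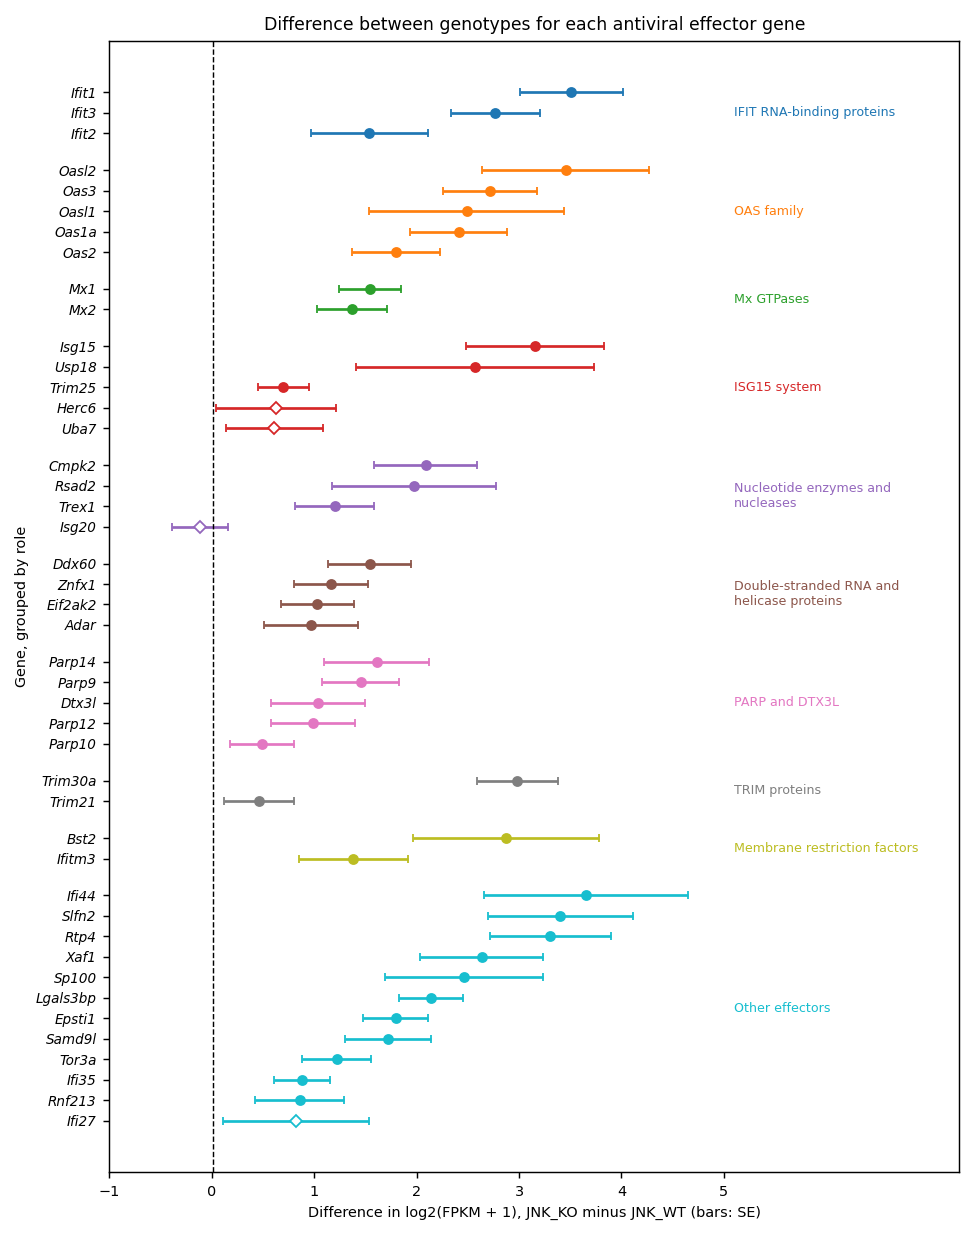
Difference in log2(FPKM + 1), JNK_KO minus JNK_WT, for each effector gene with its limma SE as bars and roles in color, where open diamonds mark the 4 genes whose groups overlap (Uba7, Herc6, Isg20 and Ifi27) and the dashed line is the median of all tested genes (0.01). Points run from -0.12 for Isg20 to 3.65 for Ifi44.

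The effectors also differed between lines of the same genotype. JNK_WT replicate 1 lay above JNK_WT replicate 2 in 40 of 44 members, where 49.8% of all tested genes did so, and the exceptions were Trim25, Ifitm3, Ifi35 and Slfn2. The median log2 difference between the JNK_WT lines, replicate 1 minus replicate 2, was 0.81 over the members and 0.00 over all tested genes, and it was over 0.75 for 25 members (12.8% of all tested genes). In FPKM the median ratio of JNK_WT replicate 1 to replicate 2 was 3.69. A total of 17 members were under 1 FPKM in JNK_WT replicate 2 and 8 in JNK_WT replicate 1, while all 44 were at 1 FPKM or more in both JNK_KO lines. For the 7 members under 1 FPKM in both JNK_WT lines (2.35% of all tested genes), the filter required the latter.

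The JNK_KO lines were closer to each other. Their median log2 difference, replicate 1 minus replicate 3, was 0.25 over the members, with replicate 1 higher in 28 members (48.6% of all tested genes) and replicate 3 in 16. The gap between the JNK_KO lines was smaller than that between the JNK_WT lines for 35 of 44 members, beside 58.4% of all tested genes. The order from JNK_WT replicate 2 over JNK_WT replicate 1 to both JNK_KO lines held for 36 members (8.96% of all tested genes). Set against its own mean over all lines, the median member lay, on the log2 scale, at -0.37 and -1.14 in JNK_WT replicates 1 and 2 and at 0.88 and 0.85 in JNK_KO replicates 1 and 3. With 1 library per line, these differences between lines had no test. The genotype difference became smaller by over 1.5 times, or turned, in 16 of 44 members without JNK_WT replicate 2, and leaving out any single line moved it by over 1.5 times, up or down, in 19 members and not in the other 25.

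**Figure D3:**
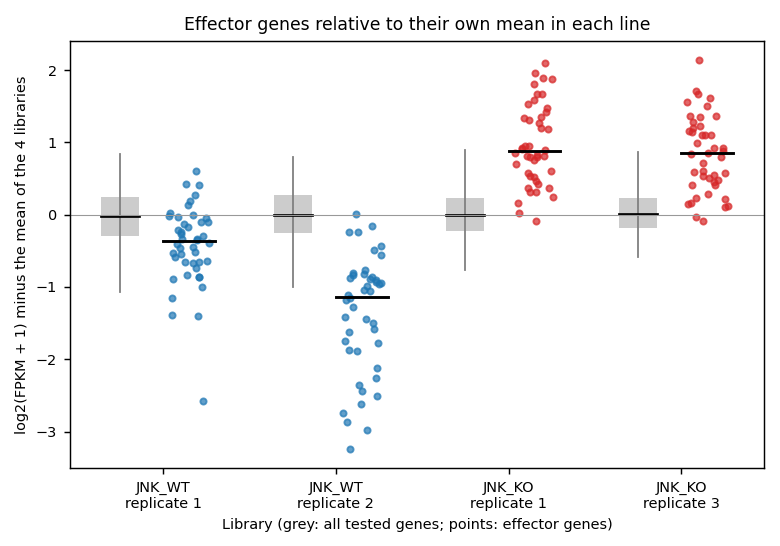
Level of each effector gene in each library, as log2(FPKM + 1) minus the gene's mean over the 4 libraries (points, with the median as a black line), beside all tested genes (grey box for the middle 50% of genes, line from the 5th to the 95th percentile, black median). The effector medians are -0.37, -1.14, 0.88 and 0.85 from left to right, while those of all tested genes lie near 0.

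Members lay on 16 chromosomes. Chromosome 6 held Herc6, Parp12, Samd9l and Usp18, with log2 differences from 0.63 to 2.57, whereas the median over the 591 tested genes of that chromosome was -0.59. Chromosome 12 held Cmpk2, Rsad2 and Ifi27, with differences from 0.82 to 2.09, beside a median of -0.41 over 413 tested genes. The 3 Ifit genes were neighbors on chromosome 19. On chromosome 5, Oas1a, Oas2 and Oas3 were neighbors, and Oasl1 and Oasl2 formed a separate pair.

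Other genes of the interferon pathway were examined from fixed lists, of which 0 members were called over all genes. Interferon ligand transcripts were barely present. Of 19 ligand genes in the table, 16 were listed at 0 in all 4 libraries, among them all 11 numbered interferon alpha genes that were analysed. Ifnb1, the gene for interferon beta, was listed at 0 and at 0.0516 FPKM in the JNK_WT lines, against 0.260 and 0.0921 FPKM in the JNK_KO lines. Ifne, the gene for interferon epsilon, and Ifnz were at 0.0672 FPKM or less in every library.

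The 9 receptor and JAK kinase genes were all expressed. Of these, 4 had an unadjusted p-value under 0.05, all higher in JNK_KO cells (4.75% of all tested genes in that direction), and 8 had groups that did not overlap with JNK_KO higher (18.3%). The receptor subunit gene Ifnar2 was at 21.1 and 12.4 FPKM in JNK_WT cells, against 49.3 and 51.1 FPKM in JNK_KO cells (log2 difference 1.57, SE 0.33). Jak2 differed by 1.56 (SE 0.66), with JNK_KO libraries far apart at 67.9 and 21.6 FPKM. Of the 9 STAT and IRF genes in the table, 4 were higher and 1, Irf5, lower in JNK_KO cells at an unadjusted p-value under 0.05, beside 4.75% and 2.89% of all tested genes. Irf7, an interferon-induced activator of interferon genes, had a difference of 4.13 (SE 0.52).

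Of the 14 tested sensor and adaptor genes, 4 had an unadjusted p-value under 0.05, all higher in JNK_KO cells (4.75% of all tested genes). The largest differences were 2.45 (SE 0.36) for the DNA sensor gene Ifi204 and 2.12 (SE 0.26) for the nucleic acid sensor gene Zbp1. The adaptor genes Mavs and Ticam1 had differences of 0.19 (SE 0.34) and 0.05 (SE 0.34), smaller than their errors. The 8 negative regulators had a median of 0.09, with 1 higher and 0 lower at an unadjusted p-value under 0.05, beside 4.75% and 2.89% of all tested genes. The former was Socs1, an inhibitor of JAK kinases, at 1.604 and 1.74 FPKM in the JNK_WT lines, against 5.24 and 3.64 FPKM in the JNK_KO lines (log2 difference 1.01, SE 0.33). Ptpn6, the gene for the phosphatase SHP-1, was at 155 and 42.6 FPKM in JNK_WT cells, against 27.7 and 26.7 FPKM in JNK_KO cells (log2 difference -1.55, SE 0.65), and Socs3 had a difference of 1.19 (SE 0.70), with unadjusted limma p-values of 0.0694 and 0.158. Among the 11 genes of MHC class I presentation, 6 had an unadjusted p-value under 0.05, all higher in JNK_KO cells (4.75% of all tested genes). The median difference over all 11 genes was 1.59. The largest differences were 2.64 (SE 0.45) for Tap1 and 1.92 (SE 0.75) for Nlrc5, the latter with an unadjusted limma p-value of 0.0558.

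**Figure D4:**
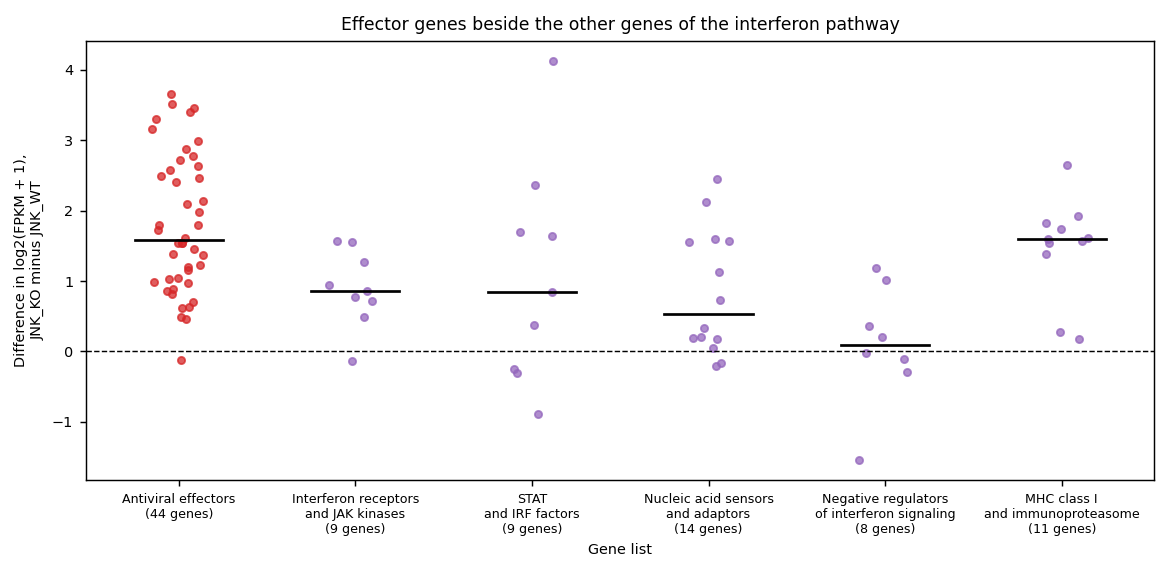
Difference in log2(FPKM + 1), JNK_KO minus JNK_WT, for the 44 effector genes (red) and the tested genes of 5 further interferon pathway lists (purple), with the median of each list as a black line and the median of all tested genes dashed. The effectors and the MHC class I list have medians of 1.58 and 1.59, and the negative regulators have one of 0.09.

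Markers of other cell types moved with genotype in part. Of 10 fibroblast markers, 5 were tested, of which 4 had a log2 difference over 0.75 (9.25% of all tested genes) and 3 had groups that did not overlap (18.3%), with JNK_KO cells higher in each case. These 3 (Dcn, Pdgfra and Pdgfrb) passed the filter on low values through the JNK_KO libraries alone and had to differ. The summed level of the 10 fibroblast markers was 13.3 and 4.36 FPKM in JNK_WT cells, against 109 and 204 FPKM in JNK_KO cells, where most of it was Dcn. The receptor genes Pdgfra (0.325 and 0.183 FPKM in the JNK_WT lines, 24.7 and 7.82 FPKM in the JNK_KO lines) and Pdgfrb (0.0404 and 0.194 FPKM, then 2.17 and 2.99 FPKM) were also higher in each JNK_KO line, with log2 differences of 3.59 (SE 0.59) and 1.67 (SE 0.32). Thy1 was at 0.0861 and 0.0722 FPKM in the JNK_WT lines, then 0.540 and 1.19 FPKM. The collagen gene Col1a1 was at 0.527 FPKM or less in every library and Lum was at 0.00840 FPKM or less. Col1a2 went the other way, at 10.3 and 0.374 FPKM in the JNK_WT lines, then 0.698 and 2.56 FPKM. Its log2 difference was -0.68 (SE 1.12). Postn, at 1.32 and 2.58 FPKM and then 0.728 and 25.6 FPKM, had groups that overlapped. The summed level of the 10 epithelial markers was 4760 and 4083 FPKM in JNK_WT cells, against 1653 and 3453 FPKM in JNK_KO cells. The part of these differences in the result for the effectors was not tested. The leukocyte markers summed to 22.05 and 3.69 FPKM in JNK_WT cells, against 3.64 and 9.87 FPKM in JNK_KO cells, most of it Cd68.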

How the data were processed

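RNA from 4 mouse mammary tumor cell lines (2 JNK_WT, 2 JNK_KO) was sequenced as single-end reads of 40 bases. The authors trimmed the reads, sampled each library, aligned them to mm10 (GRCm38) with TopHat2 2.0.14 and Bowtie2 and deposited FPKM values from Cufflinks 2.2.1, 1 column per library. The annotation was not given in the sources used here. Of 38741 rows, 27 with symbols turned into dates and 1 with no value were left out.

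Genes at 1 FPKM or more in at least 2 libraries were tested on log2(FPKM + 1) with limma 3.58.1 (intensity trend, two-sided) in R 4.3.3, and adjusted by Benjamini-Hochberg across all 12998 such genes. The thresholds were those of the study. The test was tried on simulated data. FPKM are not counts, so no count model was used. The p-values measure the spread between lines only. Positions came from GENCODE M21 (12199 of 12998 tested genes matched by symbol), promoters from RefSeq, and shared 40-base words from each member's longest protein-coding GENCODE M21 transcript.

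The members and lists were chosen with earlier results of these data known. Values in every library were given for the member with the largest difference in each role, the 12 members with the largest differences, members whose groups overlapped or whose difference was below 0, and the 5 most abundant members, and further members were named by choice after their values were seen. Some genes of the pathway and marker lists that the rule would name are not reported here. Other pseudocounts, filters, scalings, the variance model, an adjusted p threshold of 0.1 and fits without each line were tried. Summaries were made with Python 3.11.15 and pandas 2.3.3, figures with matplotlib 3.10.9.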

Additional observations from a re-analysis of the deposited data

How the results depend on the processing

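No paired analysis was possible because replicate number 1 alone stood in both groups. The count of called members was 0 under every other pseudocount, filter, scaling, variance model and adjusted p threshold. It was out of 44 members, except for 32 under the filter at a mean of 5 FPKM. In the fit described above, 30 had an unadjusted limma p-value under 0.05. Over all genes, 14 were called without the intensity trend, 10 at pseudocount 0.1, 14 at pseudocount 0.5 and 25 at an adjusted p threshold of 0.1. None of these was an effector. The count of members with an unadjusted p-value under 0.05 was between 20 (of 32 members left by the filter at a mean of 5 FPKM) and 29 under the other settings and 14 to 36 with 1 line left out. The median log2 difference of 1.58 became 2.53 with a pseudocount of 0.1, which by construction widens the differences of low genes, was 1.45 under quantile normalization, and ranged from 1.13 to 1.94 with 1 line left out. The count of members whose groups did not overlap with JNK_KO higher, 40, was 29 of 32 at the mean filter of 5 FPKM, 39 under quantile normalization and 40 to 44 without 1 line, which loosens it by construction, and that over 0.75, 38, was 34 to 38 without 1 line. No member changed direction under another pseudocount, filter, scaling or variance model. With 1 line left out, Isg20 ranged from -0.33 to 0.10, Herc6 from -0.11 to 1.36 and Ifi27 from -0.19 to 1.83, and the cause was not tested. Depth limits the members near 0 in JNK_WT cells, where no read counts were at hand.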
